A study of Mus musculus with 6 samples.

Results

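The 8 genes of sensory ganglion neurons described here (Mrgprd, Trpv1, Avil, Isl2, P2rx3, Sncg, Tmem233 and Nppb), chosen by gene symbol, were followed in 6 RNA libraries of injured mouse spinal cord. All 8 were found among the 54532 genes of the deposited count table. The mice were C57BL/6J and all had an injured cord; 3 libraries came from animals given rotarod training, in which they walk on a turning rod, and 3 from animals given none. Every library was labelled day 28, counted from training, so both groups shared the injury and the time point, and no uninjured cord was among the samples. The labels give no injury level or severity and do not say which cord segments were taken, or whether dorsal roots or ganglia were removed. They also do not say that each library came from a separate mouse, so p-values reflect the scatter of these 6 libraries alone, and that scatter may be technical. The study's question was how training changes gene expression in the injured cord.

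Sensory ganglion neurons have their cell bodies in the dorsal root ganglia, outside the cord. Each sends 1 branch of its axon to the skin, muscle or viscera and the other through the dorsal root into the dorsal horn. Nociceptors, the neurons that detect painful stimuli, carry ion channels and receptors that are rare in neurons of the cord itself. Some genes of ganglion neurons, such as Sncg and Isl2, are also transcribed in the cord, chiefly in motor neurons.

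Of the 8 genes, 5 had the same 3 libraries as their highest, and these came from both groups. Untrained replicate 2 had the highest CPM (counts relative to library size) of all 6 libraries in 8 of the 8 genes, as in 17.7% of all genes tested. In 5 of them, Avil, Tmem233, Trpv1, Mrgprd and Nppb, trained replicate 3 came next and untrained replicate 3 after it. In trained replicates 1 and 2 and untrained replicate 1 Avil was at 0.308 to 0.764 CPM, and the others of the 5 at 0 to 0.218 CPM. Nppb gave no clear division, with 2 counts in trained replicate 2 and 3 counts in untrained replicate 3. Sncg (65.3 to 89.7 CPM), Isl2 (2.40 to 5.64 CPM) and P2rx3 (0.991 to 3.48 CPM) were detected in all 6 libraries. The mean was lower in trained cord in all 8, as in 51.8% of the 16909 genes tested, but it was lower in only 5 of 8 without untrained replicate 2 (all but Mrgprd, Nppb and Isl2). None of the 8 had groups that did not overlap, against 16.8% of all genes tested.

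The start regions of Avil, Tmem233 and Trpv1 are shown because these 3 genes had the largest counts among the 5 that were highest in the same 3 libraries. Each is the 250 bases before the RefSeq gene start (GRCm38.p6), 5′ to 3′ on the gene's strand: Avil chr10:127000459-127000708 on the plus strand, Tmem233 chr5:116083268-116083517 on the minus strand and Trpv1 chr11:73233899-73234148 on the plus strand. Capitals mark matches on either strand to ATNNNTAAT, a POU-homeodomain motif, and to TGTGGT, the Runx core.
Avil: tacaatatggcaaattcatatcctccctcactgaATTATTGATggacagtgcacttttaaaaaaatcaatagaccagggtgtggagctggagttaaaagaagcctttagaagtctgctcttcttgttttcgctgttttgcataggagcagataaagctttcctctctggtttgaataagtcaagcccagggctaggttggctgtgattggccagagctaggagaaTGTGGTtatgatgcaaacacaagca
Tmem233: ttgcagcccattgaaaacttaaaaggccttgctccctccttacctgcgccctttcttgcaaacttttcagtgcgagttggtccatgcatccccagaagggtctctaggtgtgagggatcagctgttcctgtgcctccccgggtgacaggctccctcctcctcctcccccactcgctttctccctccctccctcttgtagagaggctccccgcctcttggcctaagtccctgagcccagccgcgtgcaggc
Trpv1: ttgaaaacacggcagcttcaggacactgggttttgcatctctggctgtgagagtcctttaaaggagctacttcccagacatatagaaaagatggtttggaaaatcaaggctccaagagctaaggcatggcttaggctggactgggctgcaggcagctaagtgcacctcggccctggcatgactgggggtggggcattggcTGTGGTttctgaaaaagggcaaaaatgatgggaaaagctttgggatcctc
The RefSeq table held such a window for 7 of the 8 genes, with none for P2rx3. The bases just after the window were found in a GENCODE M21 transcript for Avil but not for Tmem233 or Trpv1. The Tmem233 and Trpv1 windows also do not adjoin the gene starts of the deposited table (116083244 and 73234292). ATNNNTAAT was found in 1 of the 7 (Avil) and in 8.82% of all 32851 windows. TGTGGT was found in 2 of the 7 (Avil and Trpv1) and in 14.0% of all windows. TAAT, the homeodomain core that ATNNNTAAT contains, was found in 3 of the 7 (Mrgprd, with 4 matches, Sncg, with 2, and Avil) and in 54.9% of all. The E-box CANNTG was found in 4 of the 7 (Mrgprd, Sncg, Tmem233 and Nppb) and in 66.2% of all, and GATTAGC in 0 of the 7 and in 1.37% of all. A match is a string of letters, not a measured binding site.

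The libraries held 15814104 to 26092014 counts, and 3 counts, the floor for an undetected gene, corresponded to 0.116 to 0.191 CPM. Over all 16909 genes tested 10 (0.0591%) passed edgeR's quasi-likelihood test at an adjusted p below 0.05, 9 lower and 1 higher in trained cord. At an unadjusted p below 0.05, 5.55% were lower and 4.47% higher. Trained replicate 1 and untrained replicate 2 stood apart. In trained replicate 1 the 11 Schwann cell genes summed to 200 CPM, against 476 to 705 CPM in the other 5, and its 10 leptomeningeal fibroblast genes summed to 137 CPM, against 354 to 684. Untrained replicate 2 held transcripts of pancreatic acinar cells: 12 such genes, chosen after their values were seen, summed to 208 CPM there and to 0.740 to 9.67 CPM elsewhere. General neuron genes were present in all 6 libraries, with sums of 6220 to 7470 CPM over 10 genes.

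**Figure D1:**
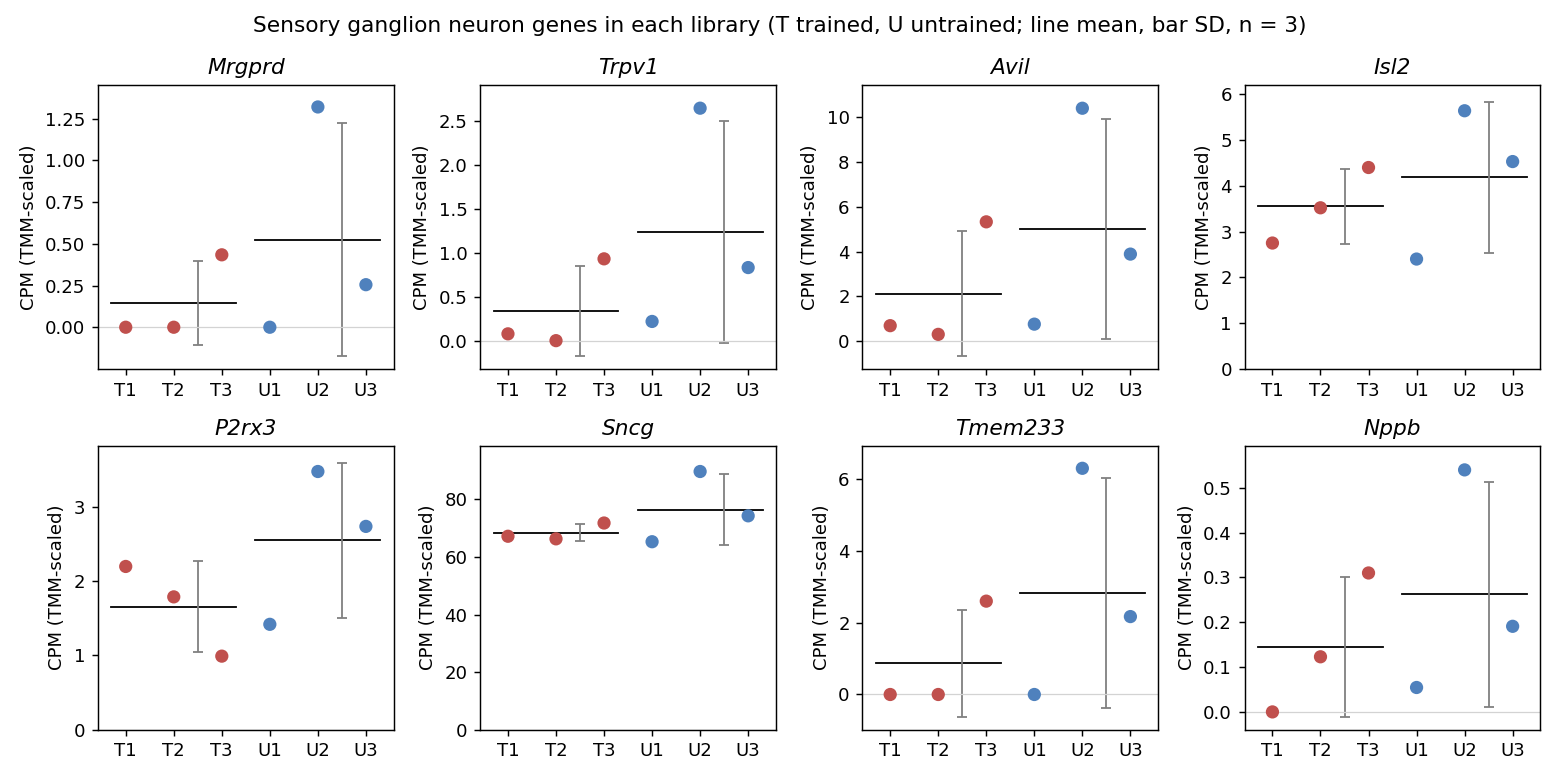
Each panel plots TMM-scaled CPM of 1 gene (vertical axis, linear) in trained (T, red) and untrained (U, blue) libraries, with the group mean as a line and the SD as a bar (n = 3 per group). In all 8 panels U2 is the highest point, and Mrgprd and Tmem233 lie at 0 in T1, T2 and U1.

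Among the channels and receptors, Trpv1, the capsaicin- and heat-gated cation channel, measured 0.0773, 0 and 0.929 CPM in the trained libraries (replicates 1, 2 and 3, here and below) against 0.218, 2.64 and 0.830 CPM in the untrained ones. These values rest on 2, 0 and 15 counts in trained and 4, 44 and 13 counts in untrained cord. Trained replicate 3 lay above untrained replicates 1 and 3, so the groups overlapped. The log2 fold change, trained over untrained, was -1.97 ± 1.38 (SE, edgeR adjusted p = 0.695), and it was -0.72 without untrained replicate 2 and -4.50 without trained replicate 3. In bulk tissue, fewer cells or axons of a kind and less RNA in each cannot be told apart.

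Mrgprd, the receptor of non-peptidergic nociceptors that responds to beta-alanine, had 0, 0 and 7 counts in the trained libraries and 0, 22 and 4 in the untrained ones. These were 0, 0 and 0.434 CPM against 0, 1.32 and 0.255 CPM. The gene was undetected in trained replicates 1 and 2 and untrained replicate 1, where 3 counts allow up to 0.116, 0.185 and 0.164 CPM. It fell below the filter on low counts. An exact two-sided permutation test over the 6 libraries gave p = 0.7 (the smallest p that 3 against 3 allows is 0.1).

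P2rx3, a subunit of the ATP-gated channel of nociceptors, followed another order. It was at 2.20, 1.79 and 0.991 CPM in the trained and 1.42, 3.48 and 2.74 CPM in the untrained libraries. Its lowest library was trained replicate 3, the second highest for Avil, Tmem233, Trpv1 and Mrgprd, and trained replicates 1 and 2 held 57 and 29 counts of it. The log2 fold change was -0.58 ± 0.37 (SE, edgeR adjusted p = 0.631). P2rx3 (chromosome 2, 84998583 to 85037462, minus strand) overlaps exons of Ssrp1 on the other strand, which was at 65.3 to 74.0 CPM. Whether strand was used in counting is not given in the sources used here, and without it reads of P2rx3 and Ssrp1 could not be told apart.

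Tmem233, a small membrane protein known to associate with voltage-gated sodium channels of sensory neurons, gave the clearest contrast between libraries. It had 0 counts in trained replicates 1 and 2 and untrained replicate 1, and 42, 105 and 34 counts in trained replicate 3 and untrained replicates 2 and 3. The detected levels were 2.60, 6.30 and 2.17 CPM. Trained cord was at 0.867 ± 1.5 CPM and untrained cord at 2.82 ± 3.20 CPM (mean ± SD, n = 3 per group), each SD larger than its mean. The log2 fold change was -1.80 ± 2.07 (SE, edgeR adjusted p = 0.825). Without trained replicate 3 both trained libraries left had 0 counts, and without untrained replicate 2 the log2 fold change was -0.38.

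Avil encodes advillin, an actin-binding protein of the gelsolin family that is widely used as a marker of peripheral sensory neurons. It was at 0.696, 0.308 and 5.33 CPM in the trained libraries and 0.764, 10.4 and 3.89 CPM in the untrained ones, a 33.6-fold range between the lowest and highest library. The log2 fold change was -1.29 ± 1.42 (SE, edgeR adjusted p = 0.817). It was -0.16 without untrained replicate 2 and -3.19 without trained replicate 3. Unlike Mrgprd and Tmem233, Avil was above 0 in every library, with 5 to 18 counts in the 3 lowest. Avil (chromosome 10, 127000709 to 127020994, plus strand) overlaps exons of Tsfm on the other strand, a gene at 14.8 to 19.4 CPM. As with P2rx3 and Ssrp1, without use of strand reads of Avil and Tsfm could not be told apart, also in the 3 lowest libraries.

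Nppb, the natriuretic peptide that itch-sensing ganglion neurons release in the dorsal horn, was the least counted of the 8. It had 0, 2 and 5 counts in the trained and 1, 9 and 3 counts in the untrained libraries. These were 0, 0.123 and 0.310 CPM against 0.0545, 0.540 and 0.191 CPM. Only trained replicate 3 and untrained replicate 2 held more than 3 counts. Nppb was below the filter, and the exact two-sided permutation test gave p = 0.6. Npr1, its receptor gene, was at 5.07 to 10.1 CPM in the 6 libraries, with a log2 fold change of -0.29 ± 0.21 (SE, edgeR adjusted p = 0.692).

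Sncg and Isl2 varied least between the lowest and highest library. Sncg, gamma-synuclein, a cytosolic protein of peripheral sensory and motor neurons, was at 67.2, 66.3 and 71.8 CPM in the trained and 65.3, 89.7 and 74.3 CPM in the untrained libraries. Its range was 1.37-fold, and 1075 to 1739 counts stood behind each value. The log2 fold change was -0.16 ± 0.10 (SE, edgeR adjusted p = 0.637), and -0.03 without untrained replicate 2. Isl2, a LIM-homeodomain transcription factor of motor and sensory neurons, was at 2.75, 3.52 and 4.40 against 2.40, 5.64 and 4.53 CPM, a 2.35-fold range. Its log2 fold change was -0.24 ± 0.30 (SE, edgeR adjusted p = 0.828) and 0.03 without untrained replicate 2.

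Thus 6 of the 8 genes passed the filter, and 0 of these 6 passed edgeR's test over all genes (smallest adjusted p = 0.631), 0 at an unadjusted p below 0.05. With no filter on low counts all 8 were tested and 0 passed. DESeq2 also called 0 of the 8, though it gave no adjusted p to Mrgprd, Nppb and Trpv1. A p above the threshold does not show that the groups were equal, and for Tmem233 the SE of 2.07 on the log2 scale left differences of several fold in either direction undetectable.

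**Figure D2:**
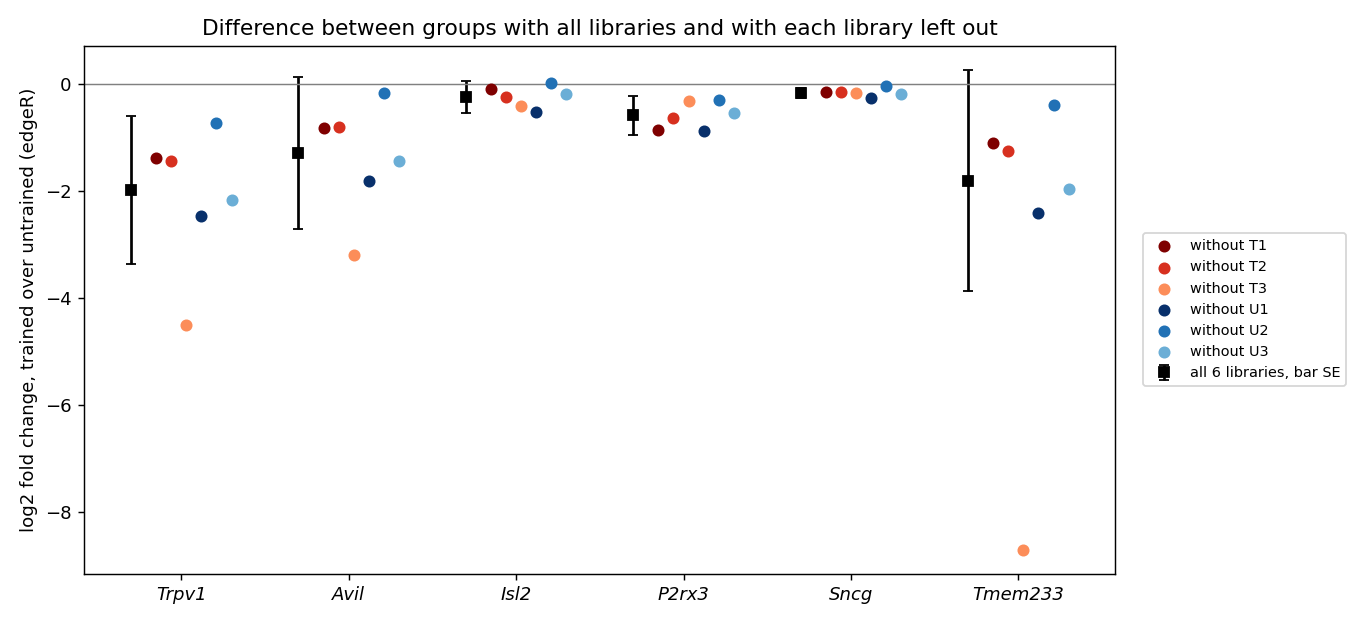
The vertical axis is the edgeR log2 fold change, trained over untrained, of the 6 genes that passed the filter, with all libraries (square, bar SE) and without each library in turn (circles). For Avil it moves between -3.19 without T3 and -0.16 without U2, and Tmem233 without T3 (-8.70) compares untrained cord with 2 trained libraries at 0 counts, so that its size is no measure of the change.

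Per kilobase of gene length, so that genes can be compared, Sncg stood far above the rest at a level of 85.0 ± 10.7 CPM per kb (mean ± SD over the 6 libraries). Isl2 followed at 1.77 ± 0.555, Avil at 1.05 ± 1.15, P2rx3 at 0.754 ± 0.325 and Tmem233 at 0.745 ± 1.0 CPM per kb. Nppb was at 0.260 ± 0.253, Trpv1 at 0.213 ± 0.269 and Mrgprd at 0.106 ± 0.164 CPM per kb. Only the step from Sncg to Isl2 lay outside the ranges over the libraries. Each of the other neighbours in this order overlapped.

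All of the 8 genes except P2rx3 rose and fell together over the libraries, though by very different amounts. As a description over 6 libraries, each gene's log2 CPM (prior count 2) was correlated with the mean of the other 7. Pearson's r was 0.99 for Mrgprd, 0.98 for Tmem233, 0.97 for Avil, 0.95 for Trpv1, 0.92 for Sncg, 0.90 for Isl2 and 0.89 for Nppb, but 0.33 for P2rx3. The points share libraries, and the 8 genes were chosen with earlier results of these data known, so these values carry no test. They also take no account of size: Sncg ranged only 1.37-fold and Isl2 2.35-fold, while Tmem233 ranged from 0 to 6.30 CPM. The mean centred log2 CPM of the 8 genes was 1.70 in untrained replicate 2, 0.70 in trained replicate 3 and 0.65 in untrained replicate 3. It was -0.93 in untrained replicate 1, -1.02 in trained replicate 1 and -1.09 in trained replicate 2.

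In a list of 23 other ganglion neuron genes, some of them also transcribed by other cells, the libraries took the same places at the top. The mean centred log2 CPM was 0.72, 0.37 and 0.15 in untrained replicate 2, trained replicate 3 and untrained replicate 3, and -0.52 to -0.34 in the other libraries. Untrained replicate 2 was the highest library in 10 of the 23, while 17.7% of all genes tested were highest there. Scn10a, the sodium channel Nav1.8 of nociceptors, was at 0, 0.123 and 3.47 CPM in the trained and 0, 9.18 and 3.32 CPM in the untrained libraries. Scn11a, the sodium channel Nav1.9, was at 0.155, 0.0617 and 1.67 against 0.0545, 6.48 and 2.62 CPM. Prdm12, a transcriptional regulator needed for nociceptors to form, was at 0.0773, 0.308 and 1.43 against 0.164, 3.06 and 1.53 CPM. All 3 were low in the same 3 libraries as Tmem233, but Scn10a and Prdm12 were named after their values were seen. Scn11a was named for its likeness to the 8 genes. Other genes of the list did not follow this pattern. Pou4f1 was at 9.63, 10.1 and 10.6 against 8.18, 9.18 and 9.83 CPM, and Gna14 at 8.82, 11.0 and 8.49 against 8.29, 9.96 and 10.1 CPM.

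Of these 23 genes 16 passed the filter and 0 passed edgeR's test in either direction. Their median log2 fold change was -0.30, against -0.0080 over all genes tested. An unadjusted p below 0.05 was found for 2, Runx1 and Trpm8, both with lower means in trained cord. Of all genes tested 5.55% were lower and 4.47% higher at that level. Runx1, a transcription factor of nociceptors and also of microglia and blood cells, was at 5.14, 5.43 and 10.1 against 12.4, 9.30 and 9.64 CPM (edgeR adjusted p = 0.474). The groups did not overlap in 3 of the 23, against 16.8% of all genes tested in either direction. These 3 were Trpm8, Cysltr2 and Lpar3, all lower in trained cord, the direction in which 8.69% of all genes tested did not overlap. Trpm8, the cold- and menthol-gated channel, was at 0.928, 0.925 and 0.682 against 1.20, 1.56 and 1.53 CPM (edgeR adjusted p = 0.492).

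The ganglion genes with the highest CPM in the list did not follow the library pattern so widely. Prrxl1, listed under its other name Drgx and also transcribed in dorsal horn neurons, was at 14.3, 21 and 17.8 CPM in the trained and 15.1, 16.9 and 14.3 CPM in the untrained libraries. Calcb, a calcitonin gene-related peptide gene that motor neurons also express, was at 9.62 to 10.7 CPM in trained cord and 10.1, 13.4 and 9.96 CPM in untrained cord. Its log2 fold change was -0.14, and 0.01 without untrained replicate 2.

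Genes that sensory neurons share with neurons of the cord were nearly level between libraries, with a mean centred log2 CPM of -0.06 to 0.11 over 20 genes. Of the 19 that passed the filter 0 passed edgeR's test, with a median log2 fold change of -0.04. An unadjusted p below 0.05 was found for 2, Sst and Fxyd7, both with higher means in trained cord, where 4.47% of all genes tested were higher at that level. Sst, somatostatin, a peptide of itch neurons and of dorsal horn interneurons, was at 121, 125 and 99.6 CPM in trained and 87.5, 81.1 and 84.2 CPM in untrained cord. Its log2 fold change was 0.45 ± 0.09 (SE, edgeR adjusted p = 0.111), and DESeq2 called it (adjusted p = 0.00349), as did edgeR without trained replicate 3 (0.00153).

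**Figure D3:**
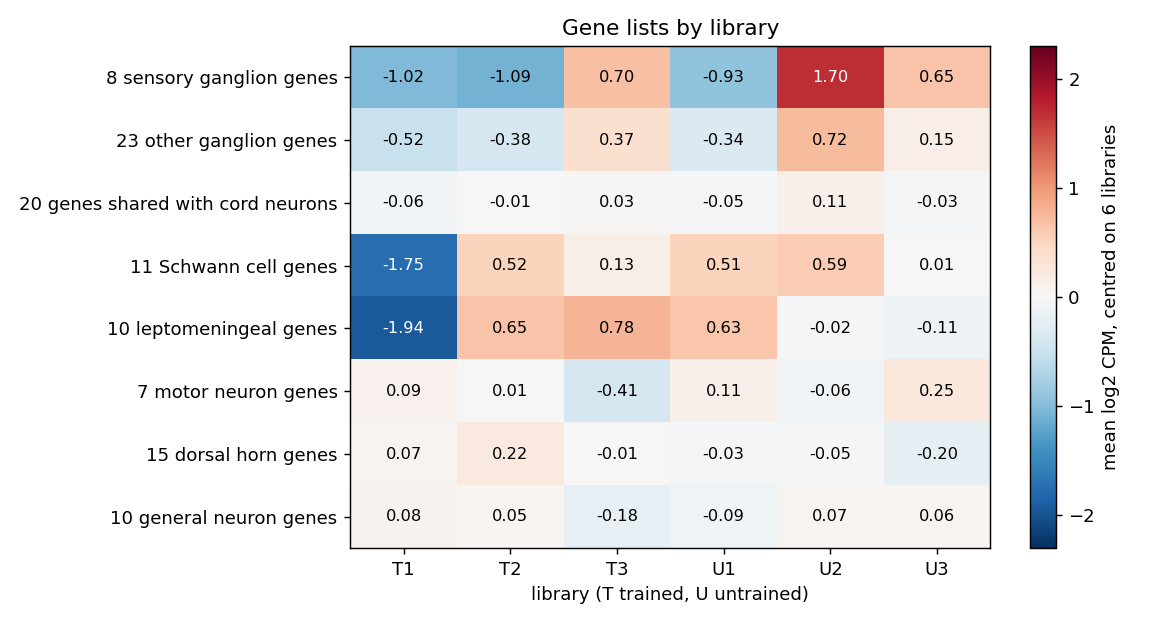
Rows are gene lists and columns are libraries (T trained, U untrained); colour and number give the mean log2 CPM of a list, centred on the 6 libraries. The sensory ganglion rows are high in U2, T3 and U3, while the Schwann cell and leptomeningeal rows are low in T1 alone (-1.75 and -1.94).

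Schwann cells and leptomeningeal fibroblasts are the cells of nerve roots and their coverings. Schwann cell genes, 11 in the list, summed to 705 and 629 CPM in trained replicate 2 and untrained replicate 1, which had 0 counts of both Tmem233 and Mrgprd, and to 478, 650 and 476 CPM in trained replicate 3 and untrained replicates 2 and 3. They summed to 200 CPM in trained replicate 1, the lowest library for 11 of 11. For Pmp2 this was a tie at 0 counts with trained replicate 3 and untrained replicate 3. By summed CPM untrained replicate 2, the highest library for all of the 8 genes, lay between trained replicate 2 and untrained replicate 1. By mean centred log2 CPM it was highest, at 0.59, against 0.52 in trained replicate 2 and 0.51 in untrained replicate 1. The part of root tissue in the levels of the 8 genes was not tested. The correlation of the list with the 8 genes over the 6 libraries was 0.98 for the 23 other ganglion genes, 0.82 for the genes shared with cord neurons, 0.55 for satellite glia, 0.49 for the axon injury genes, 0.35 for Schwann cells and 0.19 for leptomeningeal fibroblasts. It was -0.03 for general neuron genes, -0.33 for motor neurons, -0.57 for muscle and -0.62 for the dorsal horn (Pearson's r, a description that takes no account of size).

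Satellite glia are the cells that wrap ganglion neurons, and their genes are also transcribed by glia of the cord. The mean centred log2 CPM of 8 such genes was -0.08 to 0.06 over the libraries. All 8 passed the filter and 0 passed edgeR's test, with a median log2 fold change of -0.02. Untrained replicate 2 was highest in 2 of them, Glul and Cadm2.

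Of the Schwann cell list 10 of 11 genes passed the filter and 0 passed edgeR's test (median log2 fold change -0.42). Pmp22, a peripheral myelin gene, had a log2 fold change of -0.34 ± 0.50 (SE, edgeR adjusted p = 0.871), and 0.01 without trained replicate 1. Cdh19 and Egr2, of Schwann cell lineage and myelination, had the smallest p (edgeR adjusted p = 0.597 and 0.606).

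Pancreatic acinar transcripts, like all of the 8 genes, were highest in untrained replicate 2. This held for all 12 acinar genes, a list made with these levels in view. The next highest library was trained replicate 3 in 9 of them and untrained replicate 3 in 2. Isl2, Sncg and P2rx3 had untrained replicate 3 as the next highest, and P2rx3 was lowest in trained replicate 3. Ctrb1, chymotrypsinogen, was at 0.0387, 0 and 2.17 CPM in the trained and 0.327, 45 and 0.766 CPM in the untrained libraries. The 12 genes summed to 1.04, 0.740 and 9.67 CPM in trained and 1.47, 208 and 4.98 CPM in untrained cord, and 6, 9, 1, 7, 0 and 2 of the 12 were at 0 counts in these libraries in that order. The proportion was not constant: for each count of Avil, Tmem233, Trpv1, Mrgprd and Nppb together there were 9.83 counts of the 12 acinar genes in untrained replicate 2, 1.01 in trained replicate 3 and 0.678 in untrained replicate 3. The part of these transcripts in the levels of the 8 genes was not tested.

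Counts of 8 ganglion genes, 5 of the set (Avil, Tmem233, Trpv1, Mrgprd and Nppb) with Scn10a, Scn11a and Prdm12, were set against their sum in each library. These genes were chosen after their values were seen, for being high in the same 3 libraries, so like shares there are a description of the choice and say nothing of ganglion genes at large. They held 261, 665 and 232 counts in trained replicate 3 and untrained replicates 2 and 3. Tmem233 took 16.1% of these counts in trained replicate 3 (exact 95% interval 11.9 to 21.1), 15.8% in untrained replicate 2 (13.1 to 18.8) and 14.7% in untrained replicate 3 (10.4 to 19.9). Trpv1 took 5.75%, 6.62% and 5.60%, Mrgprd 2.68%, 3.31% and 1.72%, and Scn10a 21.5%, 23% and 22.4%. Avil at 33.0%, 26% and 26.3% and Scn11a at 10.3%, 16.2% and 17.7% differed most, and their intervals overlapped. In the other libraries the 8 genes held only 15 to 26 counts. Avil was 69.2% of them in trained replicate 1 (48.2 to 85.7) and 60.9% in untrained replicate 1 (38.5 to 80.3). Both lay above its share in the 3 libraries rich in these genes. However, the interval of untrained replicate 1 reaches into that of trained replicate 3 (27.3 to 39.0). In trained replicate 2 Avil was 33.3% (11.8 to 61.6), close to its share in trained replicate 3. P2rx3, which is not among these genes, did not keep step with them: it had 16, 58 and 43 counts in trained replicate 3 and untrained replicates 2 and 3. Intervals cover counting error only.

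**Figure D4:**
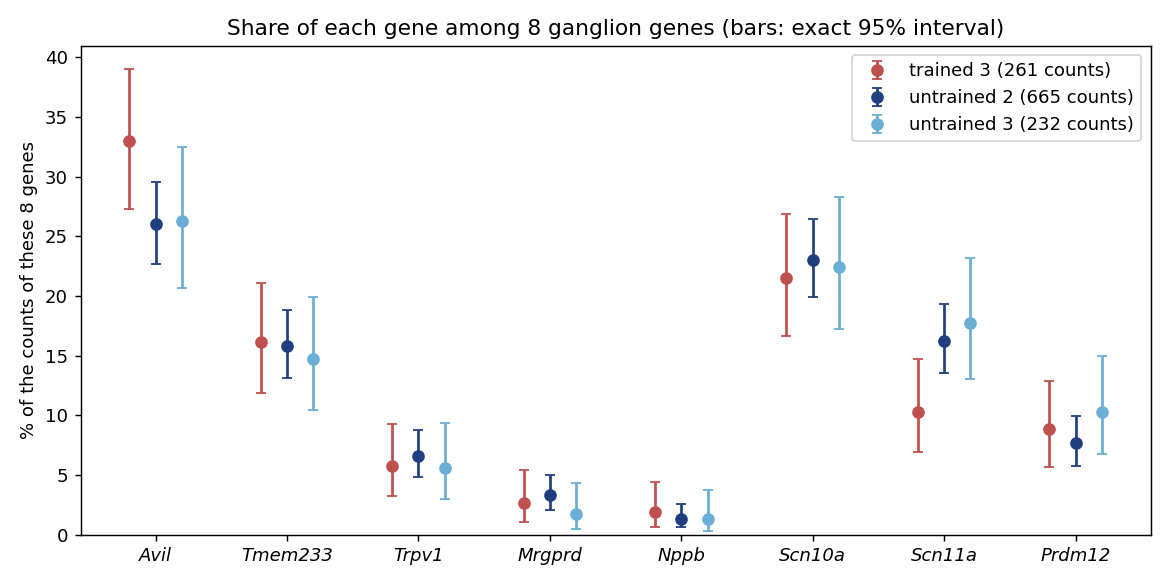
The vertical axis is the share of each gene in the counts of 8 ganglion genes, in the 3 libraries with over 200 such counts; bars are exact 95% binomial intervals. The 3 libraries lie close together for Tmem233 (14.7% to 16.1%) and Scn10a (21.5% to 23%) and furthest apart for Scn11a and Avil.

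The genes most like the 8 over the libraries were sought among 15650 tested genes with a mean of at least 1 CPM. The 5 with the highest Pearson's r with the mean log2 CPM of the 8 were 3300002P13Rik (0.997), Taf1b (0.991), Pirt (0.987), Scn11a (0.986) and Snx7 (0.983), over 6 libraries. Only 1 or 2 of these 5 stayed in the top 5 when any 1 library was left out. The correlation takes no account of size: 3300002P13Rik ranged only from 5.12 to 5.94 CPM, while Pirt, a membrane protein that regulates Trpv1, was at 0.851, 0.370 and 5.76 CPM in the trained and 0.654, 13.3 and 4.40 CPM in the untrained libraries. Of 105 genes with r of at least 0.9, 11 also spanned at least 2 on the log2 scale between lowest and highest library, a span that 1.68% of the 15650 genes had. These 11 were Pirt, Scn11a, Tusc5, Scn10a, Fxyd2, Acpp, Prdm12, Ppp1r1c, Cela2a, Ctrb1 and Ngfr, a list made after the values were seen. Pirt, Scn10a, Scn11a, Prdm12 and Acpp, the acid phosphatase of non-peptidergic nociceptors, are known ganglion neuron genes, and Cela2a and Ctrb1 are pancreatic enzyme genes.

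Family relatives of the 8 genes were also compared. Of 22 relatives (other Trpv, P2rx, synuclein, natriuretic peptide, gelsolin and Mrgpr genes, Isl1 and the natriuretic peptide receptors), untrained replicate 2 was highest in 2, Trpv3 and Nppa, while 17.7% of all genes tested were highest there. Of the 19 that passed the filter 0 passed edgeR's test, with a median log2 fold change of 0.04. Gsn, gelsolin, the relative of Avil, was at 451, 468 and 455 CPM in trained and 394, 373 and 415 CPM in untrained cord (log2 fold change 0.22 ± 0.07, SE, edgeR adjusted p = 0.362). Mrgpre, a relative of Mrgprd, was at 13.5 to 17.8 CPM over the 6 libraries (edgeR adjusted p = 0.538), and Sncb, beta-synuclein, at 258 to 341 CPM.

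The dorsal horn neurons on which sensory axons end, the motor neurons that share Sncg and Isl2, and the genes that ganglion neurons induce after axon injury were also compared. Of 15 dorsal horn, 7 motor neuron and 10 axon injury genes all passed the filter and 0 passed edgeR's test, with median log2 fold changes of 0.27, -0.23 and 0.17. Penk, proenkephalin, was at 166, 166 and 158 CPM in trained and 134, 135 and 143 CPM in untrained cord (log2 fold change 0.25 ± 0.07, SE, edgeR adjusted p = 0.268), groups that did not overlap. Tac2, the neurokinin B gene, had the same edgeR adjusted p. Slc5a7, the choline transporter of motor neurons, was at 77.8, 60.1 and 48.3 against 84.5, 84.8 and 90.1 CPM (edgeR adjusted p = 0.426), with its lowest value in trained replicate 3, the lowest library for 5 of the 7 motor neuron genes. Flrt3 and Gap43, a growth cone gene, had the smallest p of the injury list (edgeR adjusted p = 0.373 and 0.374), both with higher means in trained cord. Atf3 and Sprr1a, a transcription factor and a small proline-rich protein that injured sensory neurons induce, had lower means in trained cord. Atf3 was at 6.61, 7.40 and 15 against 13.6, 14.4 and 11.0 CPM (log2 fold change -0.44 ± 0.33, SE, edgeR adjusted p = 0.703). Sprr1a was at 5.14, 7.59 and 15.6 against 10.2, 11.0 and 13.7 CPM (-0.32 ± 0.43, edgeR adjusted p = 0.856). Both were highest in trained replicate 3. Without it both passed the test, lower in trained cord (log2 fold changes -0.88 and -0.86, edgeR adjusted p = 0.0194 and 0.048). Atf3 and Sprr1a were named after their values were seen. With that library left out, 221 of 17181 genes tested passed, 148 of them lower in trained cord, against 10 with all libraries.

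Positions of the 8 genes were those of the deposited table and had the same ends in the GRCm38 annotation (GENCODE M21). Mrgprd (ENSMUSG00000051207) lies at 145314835 to 145324086 of chromosome 7, Trpv1 (ENSMUSG00000005952) at 73234292 to 73261242 of chromosome 11 and Sncg (ENSMUSG00000023064) at 34370274 to 34374789 of chromosome 14. Tmem233 (ENSMUSG00000079278) lies at 116038755 to 116083244 of chromosome 5 and Nppb (ENSMUSG00000029019) at 147985788 to 147987205 of chromosome 4. No other gene of the table overlaps these 5. Isl2 (ENSMUSG00000032318), at 55538672 to 55546180 of chromosome 9, overlaps the antisense gene Gm17226 outside its exons, which was at 0 to 0.128 CPM.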

How the data were processed

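Total RNA of mouse spinal cord was sequenced in paired-end mode on a NovaSeq, per the labels' protocols. The authors deposited 1 table of raw counts, not normalized, for 54532 Ensembl genes, with gene lengths. In the submitters' processing notes Bowtie 0.12.2 stands beside mm8 and mm9, without roles. The sources used here give no read counter, annotation or use of strand. Of 54409 gene IDs found in GENCODE M21 (GRCm38), 98.3% had the same coordinates.

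The main test was edgeR 4.0.16 (R 4.3.3), with TMM factors, filterByExpr, a robust quasi-likelihood fit with group as the only term, and Benjamini-Hochberg adjustment over 16909 genes at a threshold of 0.05. An SE is the log2 fold change divided by the square root of the F statistic. CPM use TMM-scaled library sizes. Genes below the filter were given an exact permutation test. Other settings tried were RLE or upper-quartile factors, limma-voom (limma 3.58.1), DESeq2 1.42.0, 2 other filters, a replicate block and leaving out each library. The edgeR fit was also run on simulated counts, and the outcome is not reported here.

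The 8 genes and the gene lists were chosen with earlier results of these data known. Named genes were the 8, the 2 of smallest p and those of highest CPM in each list (not all are reported here, and 2 listed genes were left out throughout) and the 5 most like the 8. Scn10a, Prdm12, Atf3, Sprr1a, Cysltr2, Lpar3, Npr1 and the pancreatic list were chosen after their values were seen.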

Additional observations from a re-analysis of the deposited data

How the results depend on the processing

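None of the 8 genes passed the test under any alternative, and the log2 fold changes of the 6 that passed the filter kept a negative sign except Isl2 (0.03 without untrained replicate 2). Leaving out each library gave -4.50 to -0.72 for Trpv1, -3.19 to -0.16 for Avil, -8.70 to -0.38 for Tmem233, -0.87 to -0.29 for P2rx3, -0.25 to -0.03 for Sncg and -0.52 to 0.03 for Isl2. The number of the 8 with a lower mean in trained cord, a check added after seeing the data, was 5 to 8, with 5 without untrained replicate 2. With a library left out Calcb ranged from -0.21 to 0.01, Pmp22 from -0.80 to 0.01 and Drp2 from -0.52 to 0.02. The count of genes passing over the whole table was 10. It was 276 with no filter on low counts, 92 in DESeq2, 5 with the replicate block and 4 (without trained replicate 2) to 221 (without trained replicate 3) with a library left out, and 21 without trained replicate 1. No cause of these shifts was tested. With no filter 1 shared gene (Sst), 1 satellite glia gene (Fabp7), 2 motor neuron genes (Slc5a7 and Chodl) and 1 dorsal horn gene (Tac2) passed, and in DESeq2 1 shared gene (Sst). With a library left out 0 to 1 other ganglion, shared, motor neuron and leptomeningeal gene and 0 to 2 axon injury and dorsal horn genes passed. Of the 5 genes most like the 8, 1 to 2 stayed with a library left out.

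The labels do not say whether replicate numbers pair the libraries. Deviations from the group means of same-numbered libraries correlated at -0.182, -0.0906 and -0.126. These values cannot settle pairing, because the deviations of the few libraries in a group sum to 0. With the replicate block 0 of the 8 genes passed. Depth limits Mrgprd and Nppb most, with at most 22 and 9 counts in a library.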

Other observations

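Untrained replicate 2 held pancreatic enzyme transcripts at levels well above the other libraries. Pnlip, pancreatic lipase, was at 29.1 CPM there and at 0.370 to 1.60 CPM in the other 5 libraries. Cel, another lipase, was at 23.2 CPM, against 0 to 0.867 CPM, and Cpa1, a carboxypeptidase, at 20.5 CPM, against 0 to 1.24 CPM. Reg1, a secreted pancreatic protein, had 3.12 CPM there and 0 counts in the other 5. These genes were chosen after their values were seen, and the source of the transcripts was not tested.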
